A study of Mus musculus with 8 samples.

Results

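The genes described here encode the constitutive proteasome: the subunits of its 20S core and 19S cap, its PA28 and PA200 activators, its inhibitor PI31 and its assembly chaperones. They were chosen by gene symbol alone, as array probes whose gene name began with Psma to Psmg followed by a digit, leaving out the inducible immunoproteasome subunits Psmb8, Psmb9 and Psmb10. The rule took 46 of the 36331 gene names on the array, measured by 58 of 55681 probes. Of these, 45 genes entered the tests, among 27973 genes in all. Psmb11, the 20S beta subunit of the thymus, did not pass the detection filter in any group and was not tested. The rule also took Psmc3ip, a recombination protein that shares the prefix but is no proteasome subunit.

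The proteasome degrades proteins that have been tagged with ubiquitin. Its 20S core is a barrel of stacked rings, in which alpha subunits form the gated entrance and beta subunits line the chamber and carry the protease sites. The 19S cap recognises tagged proteins, removes the ubiquitin and unfolds the protein with a ring of ATPases, while PA28 rings open the gate without ubiquitin or ATP. In macrophages, PA28 alpha and beta (Psme1 and Psme2) and the immunoproteasome subunits are known as interferon-inducible genes of antigen processing. Cullin 3, the product of the gene targeted in the knockout, is the scaffold of ubiquitin ligases that supply the proteasome with substrates.

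RNA came from bone marrow-derived macrophages (BMM) of female mice aged 6 to 8 weeks, grown for 6 days in medium conditioned by L929 cells, a source of the growth factor CSF1. The cells were Cullin 3 wild type (WT) or Cullin 3 knockout (KO), and were left untreated or given lipopolysaccharide (LPS), the bacterial cell wall component sensed by TLR4, for 6 hours. Each of the 4 groups (WT untreated, WT LPS, KO untreated, KO LPS) had 2 one-colour Agilent arrays with probes of 60 bases. The labels do not say how Cul3 was deleted, in which cells, or whether the 2 samples of a group came from separate mice, and p-values reflect nothing beyond the spread of these 8 samples. In bulk RNA, fewer cells of a type and less RNA per cell cannot be told apart.

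Levels are log2 processed signal minus the 75th percentile of the array, so that 0 is the 75th percentile. Changes are differences of these log2 levels, given with their standard error (SE) from limma, and a gene is called when its p, adjusted over all genes, is under 0.05. The 75th percentile of the signal ran from 552.5 to 1284.6 over the arrays, and 60.9% to 73.7% of spots were well above background. The log2 signal of the spiked-in control RNA was 11.43 or more on untreated and 11.17 or less on LPS arrays. All 8 arrays lay on 1 slide, with WT and KO in separate rows and untreated and LPS in separate columns, so row and genotype, and column and treatment, cannot be told apart. Cul3 was lower on both KO arrays than on both WT arrays in each state, by a log2 change of -0.46 untreated (adjusted p = 0.0905) and -0.52 with LPS (adjusted p = 0.0304). All 10 macrophage markers were detected, while the summed level of 12 neutrophil markers (75th percentile = 1) was 62.7 to 67.2 in WT untreated, 102 to 108 in KO untreated, 252 to 282 in WT LPS and 430 to 464 in KO LPS samples. Bright genes weigh most in this sum. Lcn2 rose with LPS from a mean log2 level of -0.09 to 6.96 in WT and from 0.87 to 7.81 in KO cells. Of the 12 markers, 11 lay higher in KO cells untreated and 10 with LPS. Elane was lower in KO cells, at 4.69 against 5.30 untreated and 4.18 against 4.95 with LPS. Of markers of T, B and NK cells, Cd8a stood at a log2 level of 6.47 on KO untreated replicate 1 and at -7.19 to -5.75 on the other arrays.

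At the main scaling LPS raised most of the proteasome genes in both genotypes, which did not hold by calls with quantile normalization, with arrays centred on their medians or in the deposited values. The parts of the complex had widely different median changes. The activator genes of PA28 moved farthest, followed by the alpha subunits of the 20S core, while the ATPases of the 19S cap stayed close to the median of all genes. In WT cells 29 of the 45 genes rose and 2 fell, when 36.5% of all genes were called higher and 21.8% lower. In KO cells 25 rose and 4 fell, beside 28.7% and 20.4% of all genes. The 4 include Psma8, which passed the detection filter only through the untreated groups. The median log2 change of the 45 genes was 0.57 in WT and 0.54 in KO cells, against 0.32 and 0.21 over all genes. In both genotypes 23 genes were called higher, beside 24.5% of all genes, and 2 were called lower.

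These counts depended on how the arrays were scaled. In WT cells 14 proteasome genes were called higher and 13 lower with quantile normalization, 16 and 5 with arrays centred on their medians, and 10 and 14 in the deposited unscaled log2 values. In KO cells the counts were 13 and 9 with quantile normalization, 17 and 5 with centring and 9 and 11 in the deposited values. Over all genes, in either direction, 15559 of 27973 were called in WT cells with quantile normalization and 14785 with centring. In KO cells these numbers were 13495 and 12782. In the deposited values 10834 of 20120 genes were called in WT and 10023 in KO cells. The median of all genes moved with the scaling, from 0.32 to -0.06, -0.07, 0.52 (normexp background correction) and -0.59 (deposited values) in WT cells, and from 0.21 to -0.06, -0.09, 0.38 and -0.48 in KO cells. Psmb3 and Psmd3, called higher in WT cells, were called lower there with quantile normalization. Of the 29 rises in WT cells, 12 were below 0 under at least 1 other scaling (Psma7, Psmb1, Psmb2, Psmb3, Psmb5, Psmc2, Psmc3, Psmc4, Psmd3, Psmd4, Psmd6 and Psmf1), all 12 in the deposited values. Of the 25 in KO cells, 4 were (Psmb2, Psmb3, Psmd2 and Psmd5). Under all 5 scalings, 10 genes were called higher in WT cells, beside 12.1% of the 19858 genes with a value in each: Psma2, Psma3, Psma4, Psma5, Psma6, Psmd10, Psme1, Psme2, Psme3 and Psme4. In KO cells the same genes without Psme4 were called higher under all 5, beside 11.1% of all genes. Psmg1 and Psmc3ip were called lower under all 5 scalings in both genotypes, and Psmg2 also in KO cells, beside 20.2% of all genes in WT and 19.8% in KO cells.

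**Figure D1:**
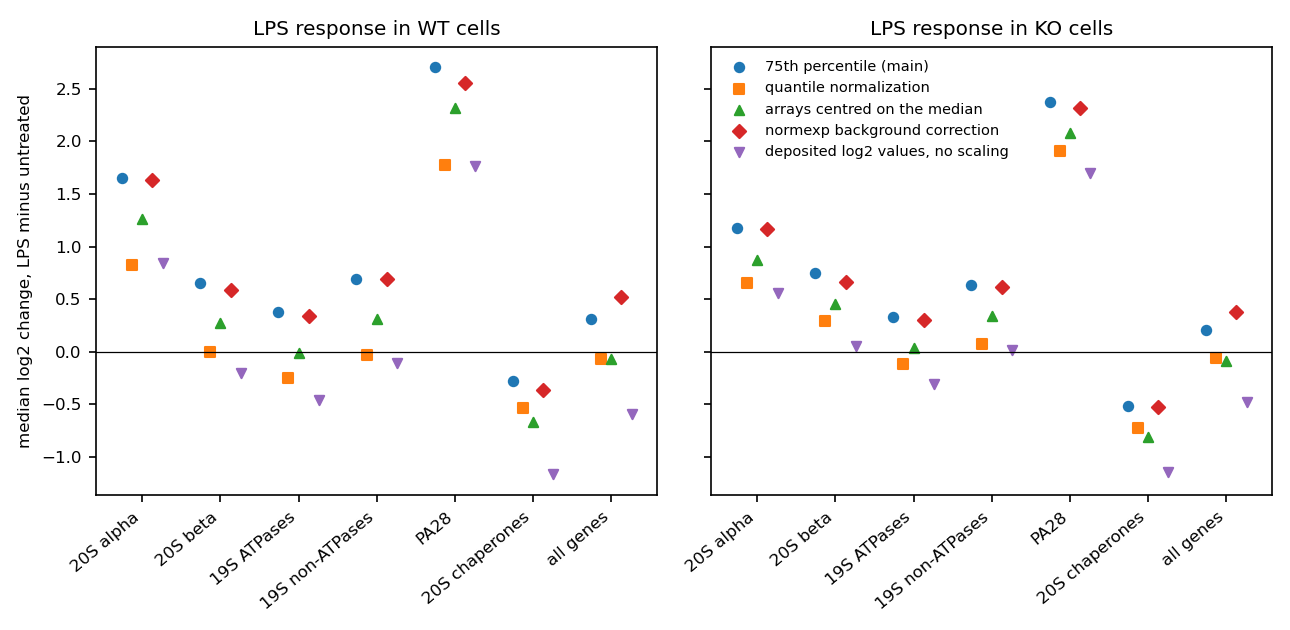
Median log2 change with LPS (vertical axis, LPS minus untreated) of 6 parts of the proteasome and of all genes in WT (left) and KO cells (right), under 5 ways of scaling the arrays, 1 symbol each. The PA28 and 20S alpha medians lie above 0 and the 20S chaperone medians below 0 under all 5, while the 19S ATPases cross 0 in both genotypes and the 20S beta and 19S non-ATPase subunits cross it in WT cells with quantile normalization and the deposited values.

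PA28 is a ring that docks on the end of the 20S core. Its alpha and beta subunits, Psme1 and Psme2, form a mixed cytoplasmic ring, and its gamma subunit, Psme3, forms a ring of its own that is mostly nuclear. All 3 genes rose with LPS in both genotypes, by medians of 2.70 in WT and 2.38 in KO cells, which is 2.39 and 2.17 above the median of all genes. Under the other scalings the PA28 median lay 1.84 to 2.39 above that of all genes in WT and 1.95 to 2.17 above it in KO cells.

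The log2 level of Psme3 (probe on chromosome 11, 101184289 to 101184348, mm9) was 5.55 and 5.45 on the WT untreated and 9.07 and 9.40 on the WT LPS arrays. On the KO arrays it was 5.21 and 5.40 untreated and 8.59 and 8.56 with LPS. All LPS arrays stood above all untreated arrays, and both KO LPS arrays stood below both WT LPS arrays. The change with LPS was 3.73 ± 0.15 (SE, n = 2 per group) in WT, or 13.3-fold (adjusted p = 7.07e-06), and 3.27 ± 0.15 in KO cells, or 9.65-fold (adjusted p = 1.66e-05). It was the largest change of any proteasome gene in either genotype.

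Psme1 (probe on chromosome 14, 56200194 to 56200253, mm9) stood at 4.96 and 4.94 in WT untreated and 7.68 and 7.47 in WT LPS samples, and at 4.77 and 4.76 in KO untreated and 7.07 and 7.22 in KO LPS samples. Its order matched that of Psme3, with KO below WT on every array of each state. The WT rise was 2.63 ± 0.13 (6.17-fold, adjusted p = 1.35e-05) and the KO rise 2.38 ± 0.13 (5.20-fold, adjusted p = 2.82e-05). On KO LPS replicate 2, 3 of the Psme1 spots carried an outlier flag and were left out of its mean.

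Psme2 (probe on chromosome 14, 56206296 to 56206355, mm9) stood at 7.16 and 6.92 in WT untreated and 9.62 and 9.86 in WT LPS samples, and at 7.45 and 7.60 in KO untreated and 9.22 and 9.38 in KO LPS samples. Here the KO arrays lay above the WT arrays without LPS and below them with LPS. The rise was 2.70 ± 0.16 in WT (6.51-fold, adjusted p = 2.64e-05) and 1.78 ± 0.16 in KO cells (3.44-fold, adjusted p = 0.00021). Another chromosome 14 probe of Psme2 gave 3.28 and 2.71, and a probe of the same name on chromosome 11 gave 2.58 and 1.04.

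**Figure D2:**
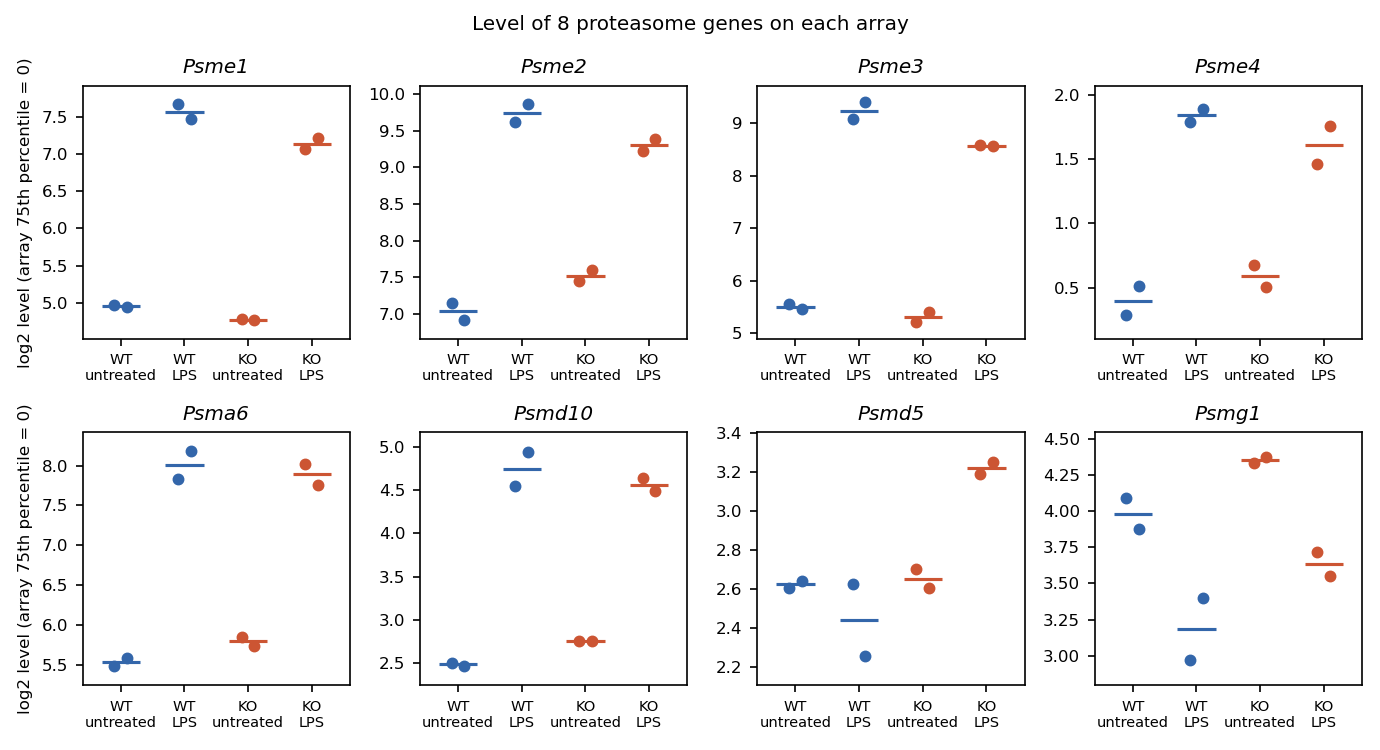
Log2 level (vertical axis, array 75th percentile = 0) of 8 proteasome genes on each of the 8 arrays (points) with the group mean (line), WT in blue and KO in red. The panels have axes of their own and levels are not comparable between genes. Psme1, Psme2, Psme3, Psme4, Psma6 and Psmd10 are higher on all LPS arrays of both genotypes, Psmg1 is lower on them, and Psmd5 is highest on the 2 KO LPS arrays.

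The promoters of the PA28 genes are printed because these genes had the largest LPS changes of the set. Each is the 250 bases before the start site in the RefSeq table of GRCm38.p6, read 5′ to 3′ on the strand of the gene, with the letters of a searched motif in capitals.
Psme1, chr14:55578244-55578493 (+ strand): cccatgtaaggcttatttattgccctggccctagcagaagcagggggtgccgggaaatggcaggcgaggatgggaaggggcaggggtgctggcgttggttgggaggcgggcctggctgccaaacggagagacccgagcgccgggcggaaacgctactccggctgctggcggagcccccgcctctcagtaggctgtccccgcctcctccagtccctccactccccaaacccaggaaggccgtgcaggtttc
Psme2, chr14:55591102-55591351 (- strand): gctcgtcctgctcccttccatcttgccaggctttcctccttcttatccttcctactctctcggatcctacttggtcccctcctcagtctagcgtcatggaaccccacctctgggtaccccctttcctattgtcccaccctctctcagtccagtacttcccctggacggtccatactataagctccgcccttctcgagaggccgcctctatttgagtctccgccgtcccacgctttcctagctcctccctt
Psme3, chr11:101315963-101316212 (+ strand): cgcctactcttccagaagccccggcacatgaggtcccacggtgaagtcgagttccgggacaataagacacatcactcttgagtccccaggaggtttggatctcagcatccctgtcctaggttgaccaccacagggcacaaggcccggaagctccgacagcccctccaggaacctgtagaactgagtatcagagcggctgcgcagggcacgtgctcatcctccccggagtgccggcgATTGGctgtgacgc
Of 5 motifs searched on both strands, only CCAAT was found in these windows, once, in Psme3 (ATTGG on the printed strand, 14 to 10 bases before the start). The letters of the antioxidant response element core (TGACNNNGC), the interferon-stimulated response element core (GAAA, any 2 bases, GAAA), the GAS core (TTCNNNGAA) and the NF-kB consensus were not in any of the 3 windows. Over all 27025 genes of the table, 11.5%, 3.46%, 8.13%, 8.23% and 37.5% held the antioxidant, interferon-stimulated, GAS, NF-kB and CCAAT letters.

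PA200 (Psme4), a single-chain activator of the 20S core, stood at 0.29 and 0.51 in WT untreated and 1.79 and 1.89 in WT LPS samples, and at 0.68 and 0.50 in KO untreated and 1.46 and 1.75 in KO LPS samples. It rose by 1.44 ± 0.16 in WT (adjusted p = 0.000434) and 1.02 ± 0.16 in KO cells (adjusted p = 0.00256), and the latter was 0.39 in the deposited values (adjusted p = 0.149). Psmf1 encodes PI31, known as an inhibitor of the 20S core in the test tube. It stood at 1.45 and 1.57 in WT untreated and 1.95 and 2.22 in WT LPS samples, and at 1.27 and 1.05 in KO untreated and 1.60 and 1.53 in KO LPS samples. Its rise of 0.57 ± 0.15 in WT cells (adjusted p = 0.0184) was called at the main scaling, was 0.19 with centring on the median (adjusted p = 0.434) and was -0.29 in the deposited values, and in KO cells its change was 0.40 ± 0.15 (adjusted p = 0.0723). The WT call was also lost with only the 4 arrays compared (adjusted p = 0.0631) and without WT untreated replicate 1 (adjusted p = 0.0821) or WT LPS replicate 2 (adjusted p = 0.0647).

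At the main scaling most subunits of the 20S core rose, and the median change of its outer alpha rings was larger than that of its inner beta rings. Of the 14 constitutive core subunits, 13 were called higher in WT and 11 in KO cells, beside 36.5% and 28.7% of all genes. At that scaling 0 were called lower, beside 21.8% and 20.4% of all genes, and the medians were 1.07 and 0.89. In WT cells Psma7, Psmb1, Psmb2, Psmb3 and Psmb5 were below 0 with quantile normalization and in the deposited values. Psmb3 was called lower there with quantile normalization. The 7 alpha subunits had a median of 1.65 in WT (6 called higher) and 1.17 in KO cells (5 called higher). The 7 beta subunits had medians of 0.66 (7 called higher) and 0.75 (6 called higher). Relative to all genes, the alpha median was 0.89 to 1.43 in WT and 0.72 to 1.03 in KO cells over the 5 scalings, and the beta median 0.06 to 0.38 and 0.29 to 0.55.

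Among alpha subunits, Psma6 moved farthest in both genotypes. Its level was 5.48 and 5.58 in WT untreated and 7.84 and 8.18 in WT LPS samples, and 5.85 and 5.73 in KO untreated and 8.02 and 7.76 in KO LPS samples. The LPS arrays stood apart from the untreated ones and the genotypes overlapped with LPS. Psma6 rose by 2.48 ± 0.17 in WT (5.58-fold, adjusted p = 4.99e-05) and 2.10 ± 0.17 in KO cells (4.28-fold, adjusted p = 0.000137). Psma5 (2.41 and 1.47), Psma3 (2.35 and 1.55), Psma4 (1.65 and 1.17) and Psma2 (1.64 and 1.06) rose in WT and KO cells. Psma7 rose by 0.82 in WT cells, below 0 with quantile normalization and in the deposited values, and its change in KO cells was 0.47 (adjusted p = 0.0959). Psma1 had the smallest changes of the alpha subunits and was called in neither genotype. Its changes were 0.42 ± 0.17 in WT (adjusted p = 0.0799) and 0.04 ± 0.17 in KO cells (adjusted p = 0.855). The alpha subunits thus ranged from 0.42 to 2.48 in WT cells.

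The beta subunits spanned a narrower range, from 0.36 for Psmb3 to 1.27 for Psmb4 in WT cells. Psmb4, a structural subunit, stood at 6.50 and 6.37 in WT untreated and 7.54 and 7.87 in WT LPS samples, and at 6.74 and 6.77 in KO untreated and 7.66 and 7.60 in KO LPS samples. It rose by 1.27 ± 0.15 in WT cells (adjusted p = 0.000567), or 0.32 in the deposited values (adjusted p = 0.151), and the KO rise was 0.87 ± 0.15 (adjusted p = 0.0037). The catalytic subunits Psmb5, Psmb6 and Psmb7, with chymotrypsin-like, caspase-like and trypsin-like activity, rose by 0.66, 1.18 and 0.96 in WT and by 0.75, 0.90 and 1.00 in KO cells, with Psmb5 below 0 in WT cells in the deposited values. Psmb7 had the largest change of the beta subunits in KO cells, with levels of 4.06 and 4.11 in WT untreated, 5.19 and 4.90 in WT LPS, 3.83 and 3.80 in KO untreated and 4.77 and 4.87 in KO LPS samples. Its KO rise of 1.00 ± 0.14 (adjusted p = 0.00159) was 0.38 in the deposited values (adjusted p = 0.147). Psmb1 was the only beta subunit called in WT (0.53, adjusted p = 0.0325) and not in KO cells (0.11, adjusted p = 0.599), and its difference between genotypes was not called (-0.41 ± 0.23, adjusted p = 0.362). The 2 probes of Psmb5 gave 0.44 and 0.66 in WT cells, of which 1 probe was called.

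The germ cell alpha subunit Psma8, a replacement for Psma7 in the testis, was dim. It was well above background on all untreated arrays, on neither WT LPS array, where its level is only an upper bound, and on 1 of the 2 KO LPS arrays. Its levels were -4.84 and -4.85 in WT untreated, -6.78 and -5.32 in WT LPS, -4.08 and -4.31 in KO untreated and -6.11 and -5.26 in KO LPS samples. Psma8 passed the detection filter only through the untreated groups, where it was higher, so the filter favoured a fall with LPS. Its fall by a log2 change of -1.49 ± 0.49 in KO cells (adjusted p = 0.0456) became -0.07 with normexp background correction (adjusted p = 0.671). With no filter the call in KO cells was lost (adjusted p = 0.0688). That call was also lost without either WT untreated array (adjusted p = 0.0748), without KO untreated replicate 1 (adjusted p = 0.155) or 2 (adjusted p = 0.107), and without KO LPS replicate 1 (adjusted p = 0.19).

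The subunits of the 19S cap had smaller median changes than those of the core. At the main scaling 10 of its 17 subunits were called higher in WT and 8 in KO cells, beside 36.5% and 28.7% of all genes. At that scaling 0 were called lower, beside 21.8% and 20.4% of all genes, and the medians were 0.50 and 0.44. With quantile normalization Psmd3 was called lower in WT cells. The 6 ATPases that form the unfolding ring had medians of 0.38 in WT (3 called higher) and 0.33 in KO cells (1 called higher), close to the 0.32 and 0.21 of all genes. Over the 5 scalings their median relative to all genes was -0.19 to 0.13 in WT and -0.07 to 0.17 in KO cells, so its sign turned. The 11 non-ATPase subunits had medians of 0.69 and 0.64, with 7 called higher in each genotype, and relative to all genes 0.04 to 0.49 and 0.14 to 0.49.

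Psmc2 had the largest called change of the ATPases in WT cells. Its level was 6.43 and 6.09 in WT untreated and 6.73 and 7.37 in WT LPS samples, and 6.64 and 6.76 in KO untreated and 7.22 and 7.07 in KO LPS samples. The rise was 0.79 ± 0.24 in WT cells (adjusted p = 0.0282), but 0.40 with centring on the median (adjusted p = 0.213), -0.062 with quantile normalization and -0.079 in the deposited values. It was not called with only the 4 arrays compared (adjusted p = 0.0694) or without WT untreated replicate 2 (0.62, adjusted p = 0.14) or WT LPS replicate 2 (0.47, adjusted p = 0.0896). Psmc4 was the only ATPase called in KO cells, at 4.48 and 4.52 in WT untreated, 5.16 and 4.90 in WT LPS, 4.43 and 4.33 in KO untreated and 5.11 and 5.11 in KO LPS samples. It rose by 0.53 ± 0.14 in WT (adjusted p = 0.0154) and 0.73 ± 0.14 in KO cells (adjusted p = 0.00509), where quantile normalization gave 0.37 (adjusted p = 0.0887) and the deposited values 0.05 (adjusted p = 0.856). Psmc1, Psmc5 and Psmc6 passed the test in neither genotype, with changes of 0.03 to 0.47. The 2 probes of Psmc3, called higher in WT cells by 0.50, disagreed, since the other gave 0.06.

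Of the non-ATPases, Psmd11, a scaffold of the lid, moved farthest in both genotypes. It stood at 2.54 and 2.94 in WT untreated, 3.82 and 3.99 in WT LPS, 2.95 and 2.75 in KO untreated and 4.04 and 4.01 in KO LPS samples. Its change was 1.17 ± 0.17 in each genotype (adjusted p = 0.00153 in WT and 0.00187 in KO cells), or 0.36 and 0.56 in the deposited values, where neither was called. The deubiquitinase Psmd14, which removes ubiquitin chains at the cap, rose by 1.13 ± 0.27 and 0.83 ± 0.27, and its lid partners Psmd7, Psmd12 and Psmd6 rose by 0.88, 1.06 and 0.69 in WT and 0.82, 0.73 and 0.74 in KO cells. Psmd4, a ubiquitin receptor, rose by 0.83 in WT cells and its change in KO cells was 0.43 (adjusted p = 0.0707). Psmd1, a scaffold of the base that also binds ubiquitin receptors, was at 0.06 and 0.15 and was not called.

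The 19S assembly chaperones, which guide the ATPases into their ring and then leave, did not move together. Psmd10 (gankyrin) stood at 2.50 and 2.47 in WT untreated, 4.55 and 4.95 in WT LPS, 2.75 and 2.76 in KO untreated and 4.64 and 4.49 in KO LPS samples. It rose by 2.27 ± 0.16 in WT (4.81-fold, adjusted p = 6.0e-05) and 1.81 ± 0.16 in KO cells (3.50-fold, adjusted p = 0.000214), more than any subunit of the 19S cap itself. Psmd9 was not called (0.32 in each genotype). Its other probe gave -0.59 in WT cells and was called there. Psmd5 was at -0.18 ± 0.15 in WT cells (adjusted p = 0.345) and rose by 0.57 ± 0.15 in KO cells (adjusted p = 0.023), where the deposited values put it below 0.

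Of the 4 chaperones of the 20S core, Psmg1 was called lower with LPS in both genotypes and Psmg2 in KO cells. These chaperones pair the alpha subunits into a ring, Psmg1 with Psmg2 and Psmg3 with Psmg4. Psmg1 stood at 4.09 and 3.88 in WT untreated, 2.97 and 3.40 in WT LPS, 4.33 and 4.37 in KO untreated and 3.72 and 3.55 in KO LPS samples, lower on all LPS arrays. It fell by a log2 change of -0.80 ± 0.18 in WT (adjusted p = 0.00958) and -0.72 ± 0.18 in KO cells (adjusted p = 0.0174), and the WT call was lost without WT untreated replicate 1 (adjusted p = 0.0529). Psmg2 stood at 3.40 and 3.28 in WT untreated, 2.20 and 2.99 in WT LPS, 3.70 and 3.71 in KO untreated and 2.85 and 2.44 in KO LPS samples. It fell by a log2 change of -1.06 ± 0.28 in KO cells (adjusted p = 0.0195), a call lost without KO untreated replicate 1 (adjusted p = 0.074) or 2 (adjusted p = 0.0765) or KO LPS replicate 2 (adjusted p = 0.0985), and its change in WT cells was -0.75 ± 0.28 (adjusted p = 0.0568). Psmg3 and Psmg4 were not called, with 0.20 and 0.19 in WT and 0.14 and -0.31 in KO cells. Pomp, an assembly gene outside these 4, was higher on all LPS arrays at the main scaling. It stood at 6.89 and 6.49 in WT untreated and 7.75 and 7.99 in WT LPS samples. On the KO arrays Pomp was at 6.88 and 6.99 untreated and 7.62 and 7.48 with LPS. The 20S chaperone median relative to all genes was -0.88 to -0.47 in WT and -0.90 to -0.67 in KO cells over the 5 scalings.

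Psmc3ip, the gene that shares only the name, stood at -1.30 and -1.44 in WT untreated, -2.11 and -2.40 in WT LPS, -1.41 and -1.43 in KO untreated and -2.04 and -1.88 in KO LPS samples. It fell by a log2 change of -0.88 ± 0.15 in WT (adjusted p = 0.00287) and -0.55 ± 0.15 in KO cells (adjusted p = 0.0238). Leaving out KO untreated replicate 1 (adjusted p = 0.106) or 2 (adjusted p = 0.0966) or KO LPS replicate 1 (adjusted p = 0.115) or 2 (adjusted p = 0.0537) ended the KO call.

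**Figure D3:**
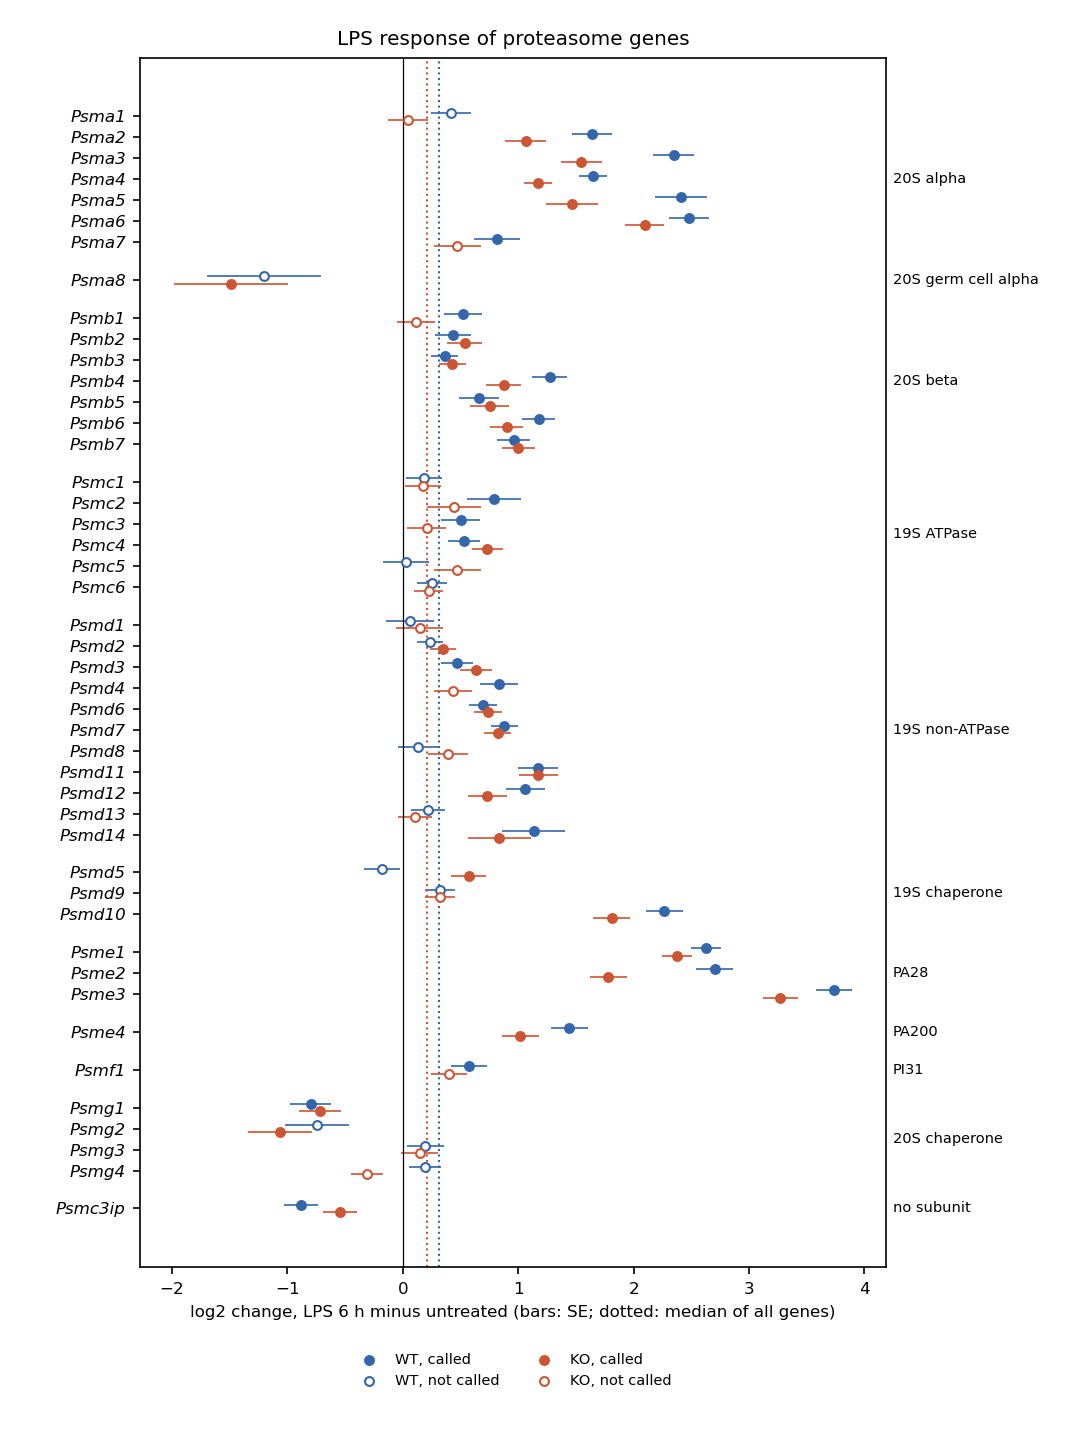
Log2 change with LPS (horizontal axis, LPS 6 h minus untreated) of each of the 45 tested genes in WT (blue) and KO cells (red), with bars of 1 SE, filled points for called genes and dotted lines at the medians of all genes (0.32 and 0.21). Psme3 lies farthest right at 3.73 and 3.27, the alpha subunits other than Psma1 and Psma7 lie above 1, and Psma8, Psmg1, Psmg2 and Psmc3ip lie below 0; 12 of the 29 called rises in WT cells and 4 of the 25 in KO cells, all of them under 1, lie below 0 in the deposited values.

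The promoters of the other members were searched for the same motifs. RefSeq windows were found for 38 of the 46 genes. The antioxidant response element core, the letters bound by the NRF transcription factors, was in 5 of the 38 (13.2%, against 11.5% of all genes), in 2 core, 2 cap and 1 chaperone gene. These stretches are shown with the motif in capitals, on either strand, and up to 12 bases on each side.
Psmb5, chr14:54618022-54618054 (- strand): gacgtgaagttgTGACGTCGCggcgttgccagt
Psmb6, chr11:70525336-70525356 (+ strand): gactaaagagagTGACGGAGC
Psmc6, chr14:45329585-45329617 (+ strand): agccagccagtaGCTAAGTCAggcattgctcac
Psmd12, chr11:107479278-107479301 (+ strand): tctGCTGTGTCAcatttgcccccc
Psmd9, chr5:123228147-123228179 (+ strand): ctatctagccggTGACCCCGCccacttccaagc
Of these genes, Psmb5, Psmb6 and Psmd12 were called higher with LPS in both genotypes and Psmc6 and Psmd9 in neither. The NF-kB consensus was in 6 of the 38 (15.8%, against 8.23%), namely Psma6, Psma7, Psmd11, Psmd12, Psmd13 and Psme4. The stretches of the alpha subunit, cap subunit and PA200 with the largest changes among them are shown in the same way.
Psma6, chr12:55398743-55398776 (+ strand): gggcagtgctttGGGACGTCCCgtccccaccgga
Psmd11, chr11:80428494-80428527 (+ strand): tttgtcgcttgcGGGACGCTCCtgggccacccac
Psme4, chr11:30771734-30771767 (+ strand): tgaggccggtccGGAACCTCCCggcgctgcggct
The interferon-stimulated core was in 3 (7.89%, against 3.46%: Psmb3, Psmd4 and Psmd9), GAS in 1 (2.63%, against 8.13%: Psmg1) and CCAAT in 14 (36.8%, against 37.5%). Some letters can satisfy more than 1 of these motifs.

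Without LPS, no proteasome gene differed between KO and WT cells beyond the threshold. Of 45 genes 0 were called by limma, when 3.44% of all genes were, and 6 had an unadjusted p under 0.05, when 21.6% of all genes did. The median difference, KO minus WT, was 0.22, against 0.05 over all genes. The smallest adjusted p was that of Psmd8, a lid subunit, at -0.71 ± 0.17 (95% interval -1.13 to -0.29, adjusted p = 0.088). Its levels were 5.42 and 5.55 in WT and 4.82 and 4.74 in KO untreated samples, and it was called with normexp background correction (adjusted p = 0.027), with a trended prior (adjusted p = 0.029) and without either WT LPS array (adjusted p = 0.0383). In the deposited unscaled values 1 gene was called higher, Psma5, at 0.78 (adjusted p = 0.0419).

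The alpha subunits lay higher in untreated KO cells by a small amount. For all 7 of them both KO arrays stood above both WT arrays, which held for 34.9% of all genes, and the differences ran from 0.13 for Psma4 to 0.59 for Psma5 with a median of 0.33 (0.27 to 0.51 over the 5 scalings). None passed the test. The other probe of Psma4 gave -0.011, and its KO and WT arrays overlapped. The alpha subunits were not alone in this. The 20S chaperones had a median of 0.37, with 4 of 4 higher without overlap. The 19S ATPases had a median of 0.31, with 4 of 6 higher and 2 lower without overlap. Psma5 stood at 5.16 and 4.89 in WT and 5.55 and 5.69 in KO untreated samples (0.59 ± 0.23, 95% interval 0.05 to 1.14, adjusted p = 0.202). Over all 45 genes, 26 stood higher and 8 lower in KO cells without overlap, beside 34.9% and 25.4% of all genes. The PA28 genes differed by -0.18 ± 0.13 (Psme1, adjusted p = 0.444), 0.49 ± 0.16 (Psme2, adjusted p = 0.156) and -0.20 ± 0.15 (Psme3, adjusted p = 0.49).

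With LPS, 1 proteasome gene was higher and 1 lower in KO than in WT cells, when 7.88% and 8.57% of all genes were. Psmd5, the chaperone S5b that holds the ATPase Psmc2, was higher. Its levels were 2.63 and 2.26 in WT LPS and 3.19 and 3.25 in KO LPS samples, against 2.61 and 2.64 in WT untreated and 2.70 and 2.61 in KO untreated samples, so that the 2 KO LPS arrays stood above the other 6. The difference was 0.78 ± 0.15 (1.72-fold, adjusted p = 0.022). It stayed positive and was called under all 5 scalings (0.74 to 1.08). The call was lost when only the 4 arrays compared were fitted (adjusted p = 0.111), with slide column as a block (adjusted p = 0.101), without either KO untreated array (adjusted p = 0.0527) and without KO LPS replicate 1 (adjusted p = 0.0845) or 2 (adjusted p = 0.104). Neutrophil markers were higher in the same comparison (9 of 12 called higher and 1 lower), and their part in this result was not tested.

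Psme3 was lower in KO cells with LPS, by a log2 change of -0.66 ± 0.15 (1.58-fold, adjusted p = 0.0357). With quantile normalization it was -0.29 (adjusted p = 0.177) and in the deposited values -0.24 (adjusted p = 0.363). The call was also lost with centring on the median (-0.62, adjusted p = 0.0574), with no filter (adjusted p = 0.0678), with slide column as a block (adjusted p = 0.134), with only the 4 arrays compared (adjusted p = 0.13), without either WT untreated array (adjusted p = 0.0628), without WT LPS replicate 2 (-0.50, adjusted p = 0.0837), without either KO untreated array (adjusted p = 0.0695) and without KO LPS replicate 1 (adjusted p = 0.127) or 2 (adjusted p = 0.139). Psme1 and Psme2 lay in the same direction, at -0.43 ± 0.13 (95% interval -0.75 to -0.12, adjusted p = 0.0715) and -0.43 ± 0.16 (95% interval -0.82 to -0.05, adjusted p = 0.116). The Psme2 value was 0.0032 with quantile normalization. For all 3 genes both KO arrays stood below both WT arrays, as for 32.7% of all genes. Psmf1 was at -0.52 ± 0.15 (adjusted p = 0.0666) and Psmd8 at -0.45 ± 0.17 (adjusted p = 0.131). In all, 10 of the 45 genes had an unadjusted p under 0.05, beside 32.5% of all genes.

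**Figure D4:**
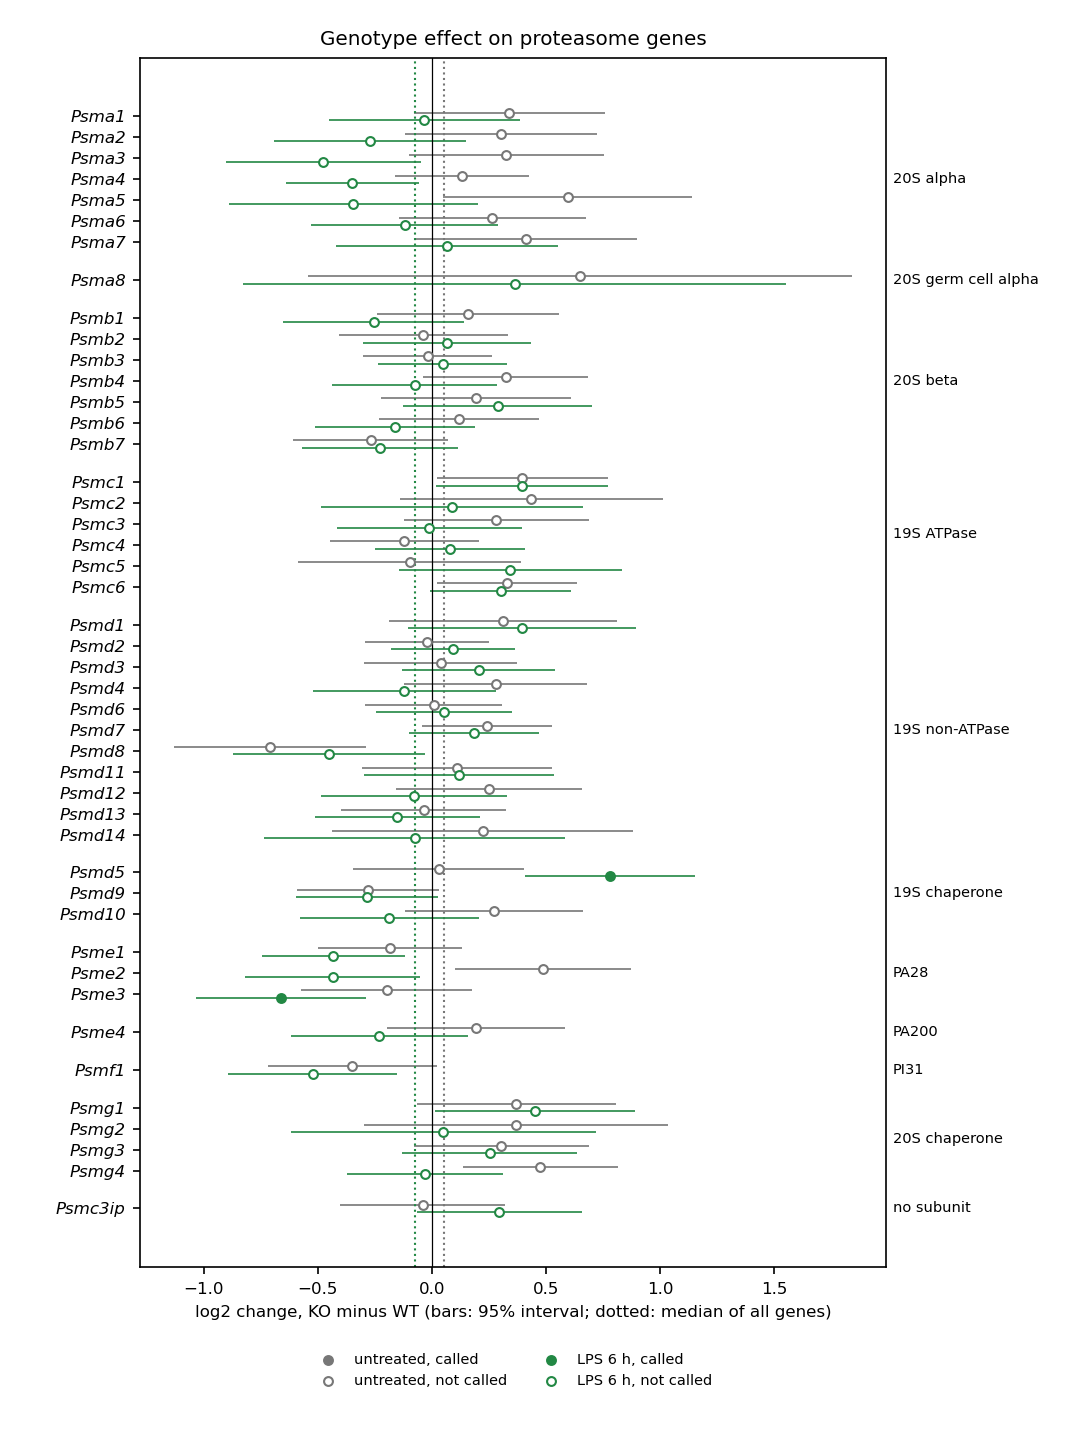
Difference between genotypes (horizontal axis, log2 KO minus WT) of each of the 45 tested genes without LPS (grey) and with LPS (green), with 95% intervals, filled points for called genes and dotted lines at the medians of all genes (0.05 and -0.08). Psmd5 at 0.78 and Psme3 at -0.66 with LPS are the called differences; the Psme3 difference was not called with quantile normalization, centring on the median or the deposited values, and the alpha subunits lie right of 0 without LPS.

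The LPS responses of the proteasome genes did not differ between the genotypes beyond the threshold. Of 45 genes 0 were called by limma in the test of the difference, when 4.48% of all genes were, and 6 had an unadjusted p under 0.05, beside 22% of all genes. The smallest adjusted p was that of Psme2, whose rise was smaller in KO cells by a log2 difference of -0.92 ± 0.22 (95% interval -1.46 to -0.38, adjusted p = 0.0753). That difference passed the threshold with normexp background correction (-0.80, adjusted p = 0.0242), with only probes well above background on all 8 arrays (adjusted p = 0.0452) and with a trended prior (adjusted p = 0.0214). It also passed with the mean of the 3 probes named Psme2 (-1.01, adjusted p = 0.0334). That mean includes the chromosome 11 probe (-1.54), whose transcript was not tested. The chromosome 14 probes, each fitted by itself with limma, gave -0.92 and -0.58 and were not called (adjusted p = 0.0939 and 0.131). Psme1 was at -0.25 ± 0.18 (adjusted p = 0.486) and Psme3 at -0.46 ± 0.22 (adjusted p = 0.282), and both turned above 0 with quantile normalization (0.13 and 0.029). Psmd5 had the largest positive difference, 0.75 ± 0.22 (adjusted p = 0.113), which was called without WT LPS replicate 1 (0.94, adjusted p = 0.0404).

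All 7 alpha subunits had a smaller change in KO than in WT cells, with differences from -0.34 (Psma7) to -0.94 (Psma5) and a median of -0.48, against -0.11 over all genes. The median was -0.17 with quantile normalization and -0.25 in the deposited values. None was called; Psma3 was at -0.80 ± 0.25 (adjusted p = 0.133), and with normexp background correction Psma3 (adjusted p = 0.0401) and Psma5 (adjusted p = 0.0476) were. The beta subunits had a median difference of 0.04 and the 6 ATPases one of -0.015. Of the 29 genes that rose in WT cells, 21 had a smaller change in KO cells, beside 81.9% of the 10202 genes called higher in WT cells. The 8 others were Psmb2, Psmb3, Psmb5, Psmb7, Psmc4, Psmd3, Psmd6 and Psmd11. In 5 genes (Psma2, Psma3, Psma4, Psmb1 and Psme2) the KO arrays stood above the WT arrays without LPS and below them with LPS, with no overlap in either state, beside 7.53% of all genes, and in 0 genes the reverse held, beside 4.21%. The other probe of Psma4 overlapped between the genotypes without LPS.

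The immunoproteasome subunits are inducible by interferon and take the places of the catalytic beta subunits. Psmb8 replaces Psmb5, Psmb9 replaces Psmb6 and Psmb10 replaces Psmb7. All 3 were well above background without LPS, at mean log2 levels of 4.75, 4.52 and 6.67 in WT and 4.56, 4.47 and 6.93 in KO cells. They rose by 2.82, 3.23 and 2.95 in WT and by 2.62, 2.76 and 2.18 in KO cells. With LPS, Psmb9 was lower in KO cells by a log2 difference of -0.52 ± 0.13 (adjusted p = 0.0453), and Psmb8 and Psmb10 were not called. Their differences were -0.39 ± 0.12 (adjusted p = 0.0743) and -0.50 ± 0.15 (adjusted p = 0.0705). None of the 3 was called without LPS. The other scalings and left-out arrays were not examined for these 3 genes or for the genes listed next.

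Of 31 genes of proteasome assembly, substrate delivery and regulation listed beside the subunits, 30 were tested. LPS raised 16 and lowered 4 in WT cells, beside 36.5% and 21.8% of all genes. It raised 16 and lowered 3 in KO cells, beside 28.7% and 20.4% of all genes. Zfand5, a zinc finger protein that stimulates the proteasome, rose by 2.20 ± 0.14 in WT and 1.44 ± 0.14 in KO cells. Keap1, the Cullin 3 adaptor that targets NRF2, rose by 1.76 ± 0.17 and 1.41 ± 0.17. Pithd1 fell by log2 changes of -2.87 ± 0.12 and -2.18 ± 0.12, and Ubqln2, a shuttle for tagged proteins, by -1.99 ± 0.12 and -1.31 ± 0.12. Between genotypes 0 of the 30 were called without LPS, beside 3.44% of all genes. In that comparison 1 had an unadjusted limma p under 0.05, beside 21.6% of all genes. With LPS 4 were higher and 2 lower in KO cells, beside 7.88% and 8.57% of all genes. Zfand5 was lower by a log2 difference of -0.71 ± 0.14 (adjusted p = 0.0216). Pithd1 (0.66 ± 0.12), Ubqln2 (0.60 ± 0.12) and the ligase Ube3c (0.54 ± 0.12) were higher. The LPS changes of the list had a median of 0.43 in WT cells and of 0.53 in KO cells.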

How the data were processed

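RNA of 8 BMM samples was measured on 1-colour Agilent arrays, 2 per group, with groups taken from the sample titles. Per the submitters' processing notes, the authors read the spot intensity with Feature Extraction 10.7.3.1 (Agilent). The processed signal intensity was background-corrected and detrended within each array and not scaled between arrays, per the file headers. The probe positions are on mm9, per the file headers. A deposited table holds log2 values of 26670 probes. Compared with the scanner files array by array, they correlated with the log2 processed signal at 0.9955 or more, lowest on KO LPS replicate 2. They differed from it by a median of 0.0155 or less. Scale and direction were read from this match, with no scaling between arrays and no centring seen. Its medians were 10.94, 11.10, 10.67, 10.73, 11.11, 11.03, 10.85 and 10.71 (replicates 1 and 2 of WT untreated, then of WT LPS, of KO untreated and of KO LPS). How its probes were selected is unknown.

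The log2 processed signal of unflagged, non-control spots was averaged per probe, and the 75th percentile of each array was subtracted. A probe was kept if any group had it well above background on both of its arrays (39870 of 55681). Each gene took the values of its probe with the highest mean. One limma model (limma 3.58.1, R 4.3.3) with a mean per group was fitted over all 8 arrays (4 residual degrees of freedom and 2.29 prior ones). Its moderated p-values were adjusted by Benjamini-Hochberg over the whole table, and the threshold was 0.05. The number of arrays limits the precision. The script was tested on simulated data.

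Alternatives were quantile normalization, centring on the median, normexp background correction (offset 50), the deposited values, no filter, detection on all 8 arrays, averaging a gene's probes or fitting every probe, only the 4 arrays compared, a block by replicate number or by slide column, a trended prior, and leaving out each array. Any proteasome gene could be named. Values on all arrays are given for the largest called rise and fall of each part per comparison and for PA28, and up to 4 called partner genes per comparison are named by size. The other genes shown by array were chosen after their values were seen. The members and lists were chosen with earlier results of these data known. Promoter windows are from RefSeq's table for GRCm38.p6. Positions within transcripts were not analysed here.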

Additional observations from a re-analysis of the deposited data

Results flagged for a closer look

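The Psme2 name is carried by 3 probes, and in a fit of each probe by itself 1 of them had an LPS response that differed between the genotypes. This probe lies on chromosome 11 (48759630 to 48759689, minus strand, mm9), while the other 2 lie on chromosome 14 (56206296 to 56206355 and 56208888 to 56209346). Its log2 level was -0.28 and -0.29 in WT untreated, 2.26 and 2.34 in WT LPS, -0.43 and -0.52 in KO untreated and 0.42 and 0.71 in KO LPS samples. Its rise with LPS was 2.58 in WT and 1.04 in KO cells, a difference of -1.54 (limma, adjusted p = 0.0304). The chromosome 14 probes gave differences of -0.92 and -0.58, neither of them called (adjusted p = 0.0939 and 0.131). With LPS the chromosome 11 probe was lower in KO cells by a log2 difference of -1.73 (adjusted p = 0.00252), against -0.43 and -0.34 for the others. The array's own annotation gives the chromosome 11 probe another transcript identifier than the other 2. The nearest name in that annotation is RP23-269N23.3, 0.1 and 1.1 kb away. Within 100 kb it also lists, among others, Irgm1, Gm12185 and Tgtp. RefSeq's table, of another build, lists a gene named Psme2b between Gm12185 and 9930111J21Rik1. Which transcript the chromosome 11 probe measures was not tested.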

How the results depend on the processing

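Counts of called proteasome genes (higher and lower) are given here where an alternative moved them by more than 1.5 times. Without LPS the KO against WT counts were 0 and 0, and 1 was called higher in the deposited values and 1 lower with normexp and with a trended prior. Over all genes, in either direction, 1253 of 20120 were called there in the deposited values, 2311 of 27973 with normexp and 1894 of 27973 with a trended prior. With LPS they were 1 and 1. The number higher was 3 with quantile normalization, 8 in the deposited values, 0 on only the 4 arrays compared and 0 with slide column as a block. The number lower was 0 with quantile normalization, centring on the median, the deposited values, no filter, only the 4 arrays compared, the replicate block and slide column as a block, 2 with the mean of a gene's probes, 3 with normexp, 3 with the filter on all 8 arrays and 5 with a trended prior. Over all 27973 genes, in either direction, 4528 were called in that comparison with quantile normalization, 6086 with normexp and 5989 with a trended prior. In the deposited values 4234 of 20120 were. For LPS in WT cells (29 and 2) quantile normalization gave 14 and 13, centring 16 and 5, and the deposited values 10 and 14. For LPS in KO cells (25 and 4) quantile normalization gave 13 and 9 and the deposited values 9 and 11. The other alternatives on all arrays or on the 4 compared gave 20 to 31 higher and 2 to 3 lower in WT and 17 to 30 higher and 3 to 5 lower in KO cells. For the difference of responses (0 and 0) normexp gave 3 lower, and the filter on all 8 arrays, the mean of probes and the trended prior 1 each. Over all 27973 genes, in either direction, 2443 were called for that difference with normexp, 1334 with the mean of probes and 2282 with the trended prior. With the filter on all 8 arrays 1880 of 22519 were. Leaving out 1 array gave 0 to 1 lower without LPS, 0 to 1 higher and 0 to 1 lower between genotypes with LPS, 20 to 29 higher and 1 to 4 lower for LPS in WT, 17 to 29 higher and 0 to 4 lower for LPS in KO cells, and 0 to 1 higher for the difference. The number lower for LPS in KO cells was 0 without KO untreated replicate 1 or 2, 2 without KO LPS replicate 1 and 1 without KO LPS replicate 2. For LPS in WT it was 1 without WT untreated replicate 1 and 4 without WT LPS replicate 2. Of called LPS rises, 12 in WT and 4 in KO cells were below 0 under another scaling. These include Psmc2 in WT cells (-0.062 with quantile normalization, -0.079 in the deposited values) and Psmf1 in WT cells (-0.29, deposited). The sign also turned for Psme2 between genotypes with LPS (0.0032, quantile) and for the differences of response of Psme1 (0.13, quantile) and Psme3 (0.029, quantile). The cause was not tested. Each group has replicates 1 and 2, but same-numbered samples did not deviate together (correlations of deviations -0.18 to 0.02), so the numbers are no pairing; with the replicate block Psme3 was not called lower in KO cells with LPS (adjusted p = 0.0658), and 26 of 31 and 25 of 29 called LPS changes stayed called in the same direction in WT and KO cells. Dim genes such as Psma8 are limited by their signal over background.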
